A study of Mus musculus with 8 samples.

Results

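The 8 aquaporin genes *Aqp1*, *Aqp3*, *Aqp4*, *Aqp5*, *Aqp7*, *Aqp8*, *Aqp9* and *Aqp11* were followed through 3491 single-cell transcriptomes of the mouse liver. They were taken by name out of 46517 genes, and each of the 8 had at least 1 count in at least 14 cells. The cells came from adult male and female mice between 8 weeks and 1 year of age, on a C57BL6/J background or carrying heterozygous reporters (*Pdgfrb* GFP, *Pdgfra* H2bGFP, *Cspg4* dsRED, *Acta2* GFP, *Cldn5* GFP, singly or combined), and no treatment was named. Livers were dissociated, and single cells were sorted into 384-well plates by reporter signal or by antibodies: CD31 and VE-cadherin for endothelium, EPCAM for cholangiocytes, CD68 for macrophages, PDGFRα for mesenchyme. Hepatocytes were caught without enrichment. The label of a cell's plate gives its sex but not the single mouse. RNA was read with Smart-seq2, which sequences fragments of polyadenylated transcripts without molecular identifiers, so that all intervals below cover counting error only.

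The 4 cell classes and both sexes form 8 pools. They held 655 male and 451 female endothelial cells, 358 and 39 epithelial cells, 255 and 396 immune cells, and 998 and 339 mesenchymal cells. The median total per cell lay between 88932 counts in female epithelial cells and 321121 in female mesenchymal cells, and a single plate supplied the female mesenchymal cells. Of the 203 hepatocytes only 2 were female, so nothing below compares hepatocytes between the sexes. The labels held against their markers: the 7 cholangiocyte markers summed to 8793 CPM (a gene's counts, scaled to 1000000 counts in all) in cholangiocytes and to 104 CPM in hepatocytes, and the 7 endothelial markers reached between 5329 and 11199.5 CPM in the 6 endothelial annotations. Albumin transcripts stood at 3598 CPM in cholangiocytes, against 4267 to 10275 CPM in the 4 hepatocyte clusters.

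Aquaporins are membrane channels whose subunits each hold a pore of their own, lined where a pair of half-helices meet at the signature asparagine-proline-alanine. *Aqp1*, *Aqp4* and *Aqp5* pass water, *Aqp3*, *Aqp7* and *Aqp9* also pass glycerol, *Aqp8* passes water, hydrogen peroxide and ammonia, and *Aqp11* is a distant member found on membranes inside the cell. In the liver, *Aqp9* is known as the glycerol channel of the hepatocyte surface that faces the blood, *Aqp8* as a channel of the hepatocyte's canalicular and internal membranes, and *Aqp1* as the water channel of blood vessels and bile ducts.

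The signature stretch of this family is short. It is shown here for members that hold it exactly and reached a level in some cell type. The second signature of *Aqp3* is added because it sets glycerol channels apart from water channels. Each run is coding sequence of the GRCm38 reference (GENCODE vM21 transcripts), written 5′ to 3′ on the strand of the gene and lying within a single coding exon, with the codons for asparagine, proline and alanine in capitals.
Aqp1, first signature, chr6:55336707-55336733, plus strand: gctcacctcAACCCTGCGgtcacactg
Aqp1, second signature, chr6:55345828-55345854, plus strand: tgcggtatcAACCCTGCCcggtcattt
Aqp5, first signature, chr15:99591467-99591493, plus strand: ggccacatcAATCCGGCCattactctg
Aqp5, second signature, chr15:99593261-99593287, plus strand: tgttccatgAACCCAGCCcgatctttc
Aqp8, first signature, chr7:123464193-123464219, plus strand: ggacacttcAACCCTGCTgtgtcgctg
Aqp8, second signature, chr7:123466602-123466628, plus strand: gcctgcatgAACCCTGCTcgtgccttt
Aqp9, first signature, chr9:71132732-71132758, minus strand: ggccacatcAACCCAGCGgtgtctttt
Aqp9, second signature, chr9:71122841-71122867, minus strand: tgtgccatgAACCCTGCTcgagacctc
Aqp3, second signature, chr4:41093832-41093858, minus strand: tatgccgtcAACCCTGCCcgtgacttt
Aqp11, its only signature, chr7:97729044-97729070, minus strand: gcattgtttAACCCAGCGctggcactt
A search of the reading frames for AACCCN or AATCCN followed by GCN found 2 signatures each in *Aqp1*, *Aqp3*, *Aqp4*, *Aqp5*, *Aqp8* and *Aqp9*, 1 in *Aqp11* and 0 in *Aqp7*. The second codon after the second signature was GAC, for aspartate, in the glycerol channels *Aqp3* and *Aqp9*, and TCA, TCT and GCC, for serine, serine and alanine, in *Aqp1*, *Aqp5* and *Aqp8*. The search took exact codons only, so a variant signature in *Aqp7* or *Aqp11* would be missed. *Aqp9* (chr9:71110659-71168682) shares its span with genes annotated on the opposite strand, and *Aqp4* with an antisense gene. The counting of strands is not given in the sources used here, so reads of such partners cannot be told apart from those of *Aqp9* and *Aqp4*.

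The 8 genes differed widely in how many cells held them. *Aqp1* had a count in 2141 of the 3491 cells and at least 20 counts in 1155 of them, and it was above 1 CPM in all 30 clusters. *Aqp7* was counted in 202 cells but reached 20 counts in 5. *Aqp11* was counted in 99 cells, *Aqp8* and *Aqp9* in 73 each, *Aqp3* in 69, *Aqp5* in 27 and *Aqp4* in 14. Cells with at least 20 counts, the detection limit named in the study's methods, numbered 45 for *Aqp8*, 35 for *Aqp11*, 33 for *Aqp9*, 14 for *Aqp5*, 2 for *Aqp4* and 0 for *Aqp3*. *Aqp1* was thus the only member present at that limit in over 100 cells.

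**Figure D1:**
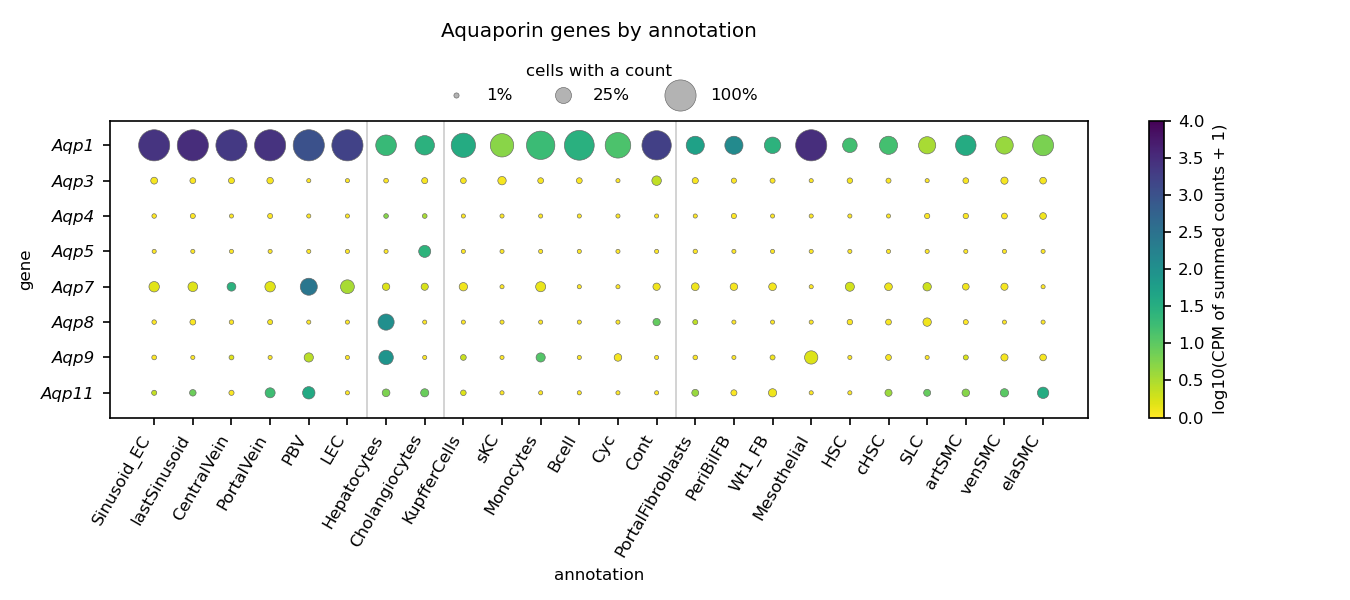
Level of the 8 aquaporins in the annotated cell types. Each row is a gene and each column an annotation; colour gives log10(CPM + 1) of the counts summed over all cells of the annotation, and the area of a dot the share of cells with a count. *Aqp1* fills the endothelial columns at 1602 to 3161 CPM outside PBV, *Aqp8* and *Aqp9* stand in hepatocytes at 105 and 84.1 CPM, and *Aqp5* in cholangiocytes at 25.2 CPM.

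Each class was compared with the mean of the other 3, with counts summed per class and pool. A gene was called where edgeR's quasi-likelihood test gave a Benjamini-Hochberg adjusted p under 0.05 over all genes and the log2 fold change was at least 1. Both pools of a class differ in sex and so come from different mice, but the mice behind each pool are not given and 20 of 22 plates held cells of several classes. The p-values therefore measure only the spread between these sums, in which animal, sex and plate cannot be told apart. *Aqp1* and *Aqp7* were called higher in endothelium, and *Aqp5* and, at the edge of the threshold, *Aqp8* in epithelium. Of 28 tests (7 members that passed the filter on low counts, 4 classes), 4 were called higher, where 7.77% of all tests were. None was called lower by edgeR, where 3.65% of all tests were, with 3 lower at an unadjusted p under 0.05. DESeq2 called 4 lower, where it called 11% of all tests lower.

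*Aqp1* stood at 3238 CPM in female and 2004 CPM in male endothelial cells. In the female and male pools it was at 146 and 15.9 CPM in epithelial cells, 92.9 and 47.7 in immune cells, and 76.0 and 42.0 in mesenchymal cells. Both endothelial pools lay above all others, by a log2 fold change of 5.20 (SE 0.64, adjusted p = 0.00320). Endothelial cells held 95.3% of all *Aqp1* counts, and *Aqp1* ranked 11th among all genes by its level in that class.

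*Aqp5*, a water channel of secretory epithelia, stood at 5.78 CPM in female and 16.7 CPM in male epithelial cells. Outside epithelium a single count was found, in a portal fibroblast. Its log2 fold change was 12.66 (SE 1.25, adjusted p = 0.00212). *Aqp8* was at 40.9 CPM in the male epithelial pool and at 0 in the female one, which held 2 hepatocytes. Its log2 fold change of 7.18 (SE 1.95, adjusted p = 0.0485) was lost in the fit that took the sex of the pools as a block (5.86, adjusted p = 0.279) and was -7.04 (adjusted p = 0.715) without the male epithelial pool. *Aqp9* had the same split, 32.9 CPM against 0, and was not called (5.50, SE 1.69, adjusted p = 0.0736). Without the male epithelial pool it was at -8.40 (adjusted p = 0.534). *Aqp7* was called higher in endothelium (24.4 CPM in the female pool, 4.20 CPM in the male, 0.103 to 0.706 in the other pools; log2 fold change 5.42, SE 0.89, adjusted p = 0.00965). Of its 3423 endothelial counts, 61.5% came from 1 cell. Without that cell the log2 fold change was 3.82 (SE 0.82, adjusted p = 0.0267). In the male pool 1 other cell gave 92.6% of the counts, and without it that pool was at 0.312 CPM, within the range of the other classes.

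Within endothelium, *Aqp1* was a gene of nearly every cell. A count was found in 1105 of 1106 cells and at least 20 counts in 1027. The median cell held 2409 CPM, and the middle 90% of cells spanned 50.8 to 6909 CPM. The study listed *Aqp1* among the markers by which it named sinusoidal clusters, and the clusters were built from these transcriptomes, so its differences between clusters are partly built in.

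Cluster #e8, a sinusoidal cluster, held the highest level, with 5076 CPM in the female and 3639 CPM in the male pool. Cluster #e6, annotated lastSinusoid, was at 3383 and 2672 CPM. The remaining sinusoidal clusters were #e5 (3531 and 2092) and #e3 (2647 and 1933), beside the portal vein cluster #e2 (2783 and 1863) and the central vein clusters #e7 (2895 and 2364) and #e1 (2676 and 1285). The female pool of #e5 lay above those of the vein clusters and that of #e3 below them, while both male pools lay within their range. In lymphatic endothelium, #e4, the order of the pools was the opposite, with 1243 CPM in 13 female and 2403 CPM in 9 male cells. Females were above males in 7 of 8 clusters, but sex coincided with plate throughout, and the sexes were not tested.

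Each cluster was tested against the mean of the other 7. Of 24 tests of members (*Aqp1*, *Aqp7* and *Aqp11* passed the filter), 3 were called higher, where 1.29% of all tests were, and none of these was *Aqp1*. For *Aqp1*, #e8 came nearest, with a log2 fold change of 0.74 (SE 0.28, adjusted p = 0.251). With sums per plate in place of pools it was 1.06 (adjusted p = 0.0431). The female plates of #e8 lay at 4981 to 5506 CPM and the male plates at 3533 to 4394 CPM. Only #e8 passed an unadjusted p of 0.05 among the 8 clusters, and DESeq2 called none for *Aqp1*. None of the other 7 clusters was called for *Aqp1* in either direction, and the log2 fold changes of #e2, #e1 and #e3 were -0.22 (SE 0.30), -0.44 (SE 0.31) and -0.19 (SE 0.30).

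**Figure D2:**
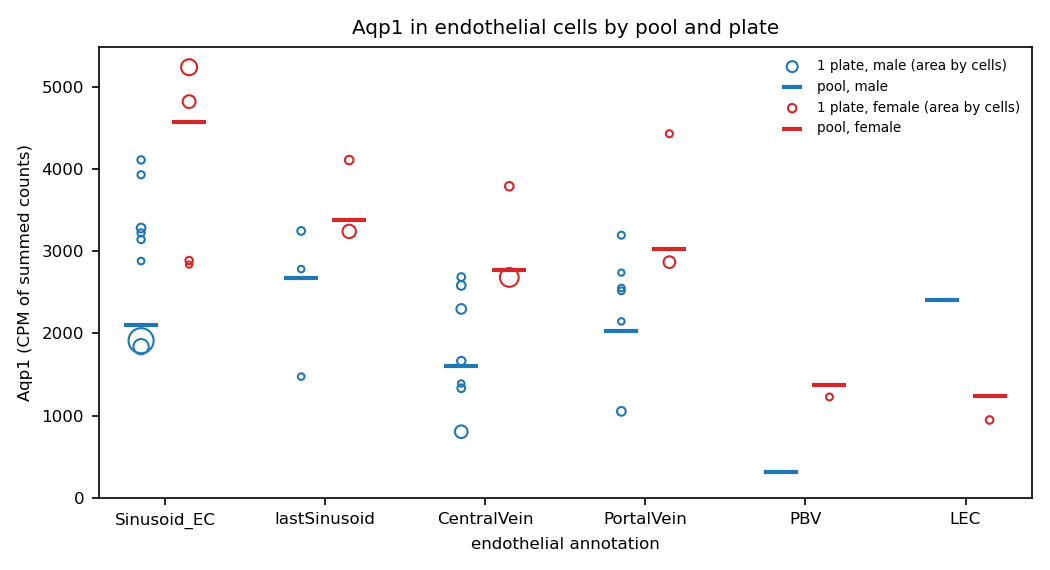
*Aqp1* in the endothelial annotations, by pool and plate. The vertical axis is CPM; bars are the sums of the male and female pools, and circles are single plates with at least 5 cells, with an area by the number of cells. Female pools sit above male pools in sinusoidal endothelium (4575 against 2099 CPM), and the male plates of the same annotation spread from 1838 to 4110 CPM, within the female plates' range of 2836 to 5238 CPM in part.

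Single cells showed what the sums hid. In #e7, cells fell from 4395 CPM at the upper quartile to 253 CPM at the lower quartile, and 253 of the 302 cells annotated CentralVein reached 20 counts, against 526 of 542 cells annotated Sinusoid_EC. Endothelial cells of the peribiliary vessels, annotated PBV, were the lowest by the median cell, at 49.8 CPM, though their female sum lay above that of lymphatic endothelium. Of the PBV cells, 7 of 14 reached 20 counts, and the pools stood at 1375 CPM (9 female cells) and 316 CPM (5 male cells), with 41.6% of all counts from 1 cell. These cells carried the general endothelial markers at 9194 CPM but the 6 sinusoidal markers at 139 CPM, against 15820 CPM in Sinusoid_EC. They belong to cluster #e2, so no fit tested PBV alone.

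**Figure D3:**
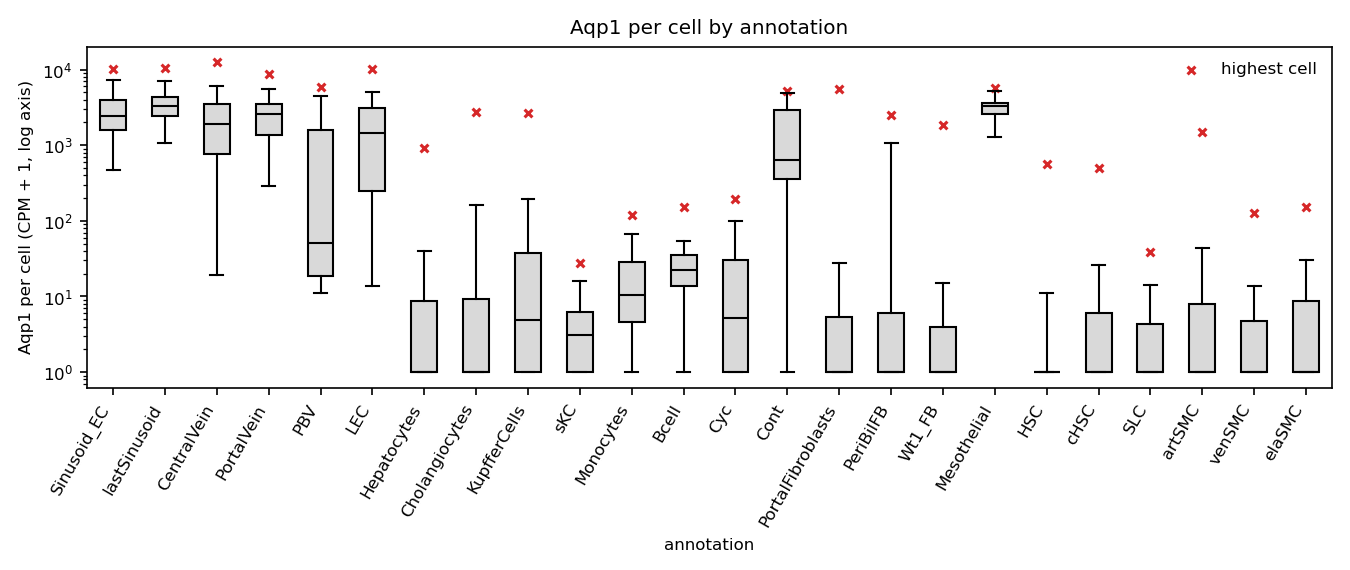
*Aqp1* in single cells by annotation. Boxes span the quartiles over cells with the median as a line, whiskers the 5th to 95th percentile, and crosses mark the highest cell; the vertical axis is CPM + 1 on a log scale. Endothelial medians run from 3328 CPM in lastSinusoid to 1463 CPM in LEC and 49.8 CPM in PBV, and outside endothelium the mesothelial median is 3321 CPM.

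Outside endothelium, at least 20 counts of *Aqp1* were found in few cells of most annotations. The marker genes of endothelium moved with *Aqp1* in several annotations. Lower levels were broader in some groups. The median cell was at 97.3 CPM in female cholangiocytes, 69.1 CPM in the Kupffer cell cluster #i6 and 21.5 CPM in B cells. In hepatocytes and portal fibroblasts the median was 0. Mesothelial cells, the lining of the liver capsule, carried *Aqp1* throughout. All 6 carried between 907 and 5774 CPM, and their summed level was 2947 CPM. The 7 endothelial markers summed to 504 CPM, with only 1 of them, *Cdh5*, at 0, and the 6 sinusoidal markers to 12.1 CPM. Of the 6 cells, 2 had no endothelial or sinusoidal marker at 20 counts. The cells came from 5 plates, with at most 2 from any of them.

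Peribiliary fibroblasts (PeriBilFB) held *Aqp1* in a minority. At least 20 counts were found in 12 of 98 cells, at 871 CPM over those cells, and 10 of the 12 came from 1 male plate. The endothelial markers summed to 148 CPM there, to 641 CPM in the 2 female cells and 11.5 CPM in the 10 male ones. *Cdh5* reached 20 counts in none of the 12, and 9 of them had no endothelial or sinusoidal marker at 20 counts. Among the 86 cells below that limit *Aqp1* stood at 2.46 CPM. The plates thus differed: the male plate with 54 of the cells was at 193.5 CPM, the female plate at 59.1 CPM, and the male plates with 16 and 13 cells at 15.1 and 0.26 CPM.

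In portal fibroblasts, 15 of 463 cells reached 20 counts. These 15 held 959 CPM of *Aqp1* beside 2352 CPM of endothelial and 2970 CPM of sinusoidal markers, against 36.5 and 31.7 CPM in the other 448. In hepatocytes it was 4 of 203 cells (608 CPM, beside 3354 CPM of endothelial markers). In Kupffer cells, the resident macrophages, 40 of 469 cells reached the limit, at 322 CPM. These 40 held 836 CPM of endothelial and 2254 CPM of sinusoidal markers, and the 429 other cells 458 and 1458 CPM. *Cdh5*, an endothelial marker of the list, reached 20 counts in 32 of the 40 and in 287 of the 429 cells. The paper describes *Cdh5* as expressed by Kupffer cells themselves, at about the level of endothelium. The endothelial sums in Kupffer cells therefore cannot be read as endothelial transcripts alone. Arterial smooth muscle cells (artSMC) held 11 cells of 237 with at least 20 counts of *Aqp1*, all on the female plate. These 11 held 218 CPM of endothelial and 531 CPM of sinusoidal markers, against 26.2 and 69.1 CPM in the other 226. Of the 11, 5 had no such marker at 20 counts. The part of endothelial transcripts in these values was not tested.

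**Figure D4:**
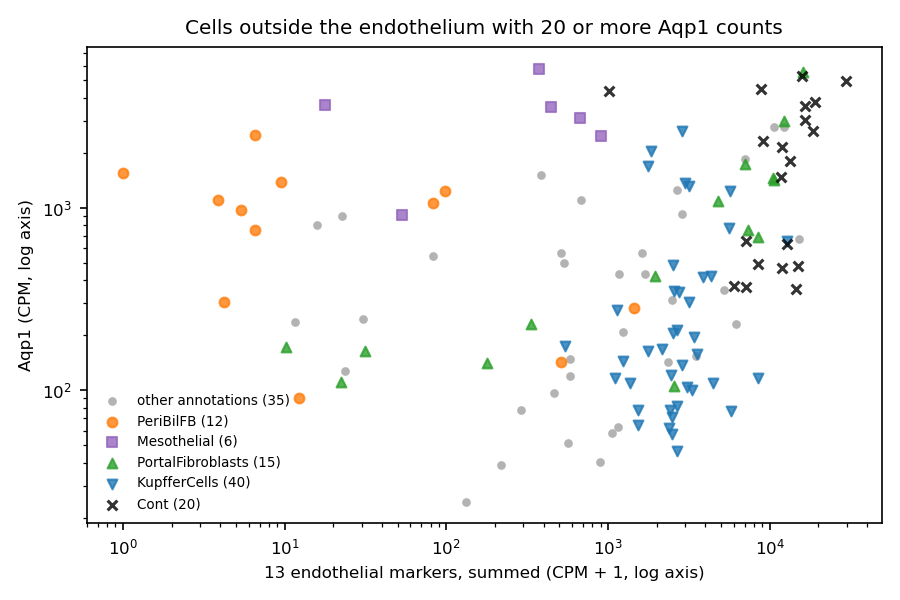
*Aqp1* against endothelial markers in cells outside endothelium. Each point is a cell with at least 20 *Aqp1* counts; the horizontal axis is the summed CPM + 1 of the 7 endothelial and 6 sinusoidal markers and the vertical axis *Aqp1* in CPM, both on log scales, with colour for the annotation. Over the 12 peribiliary fibroblasts the 7 endothelial markers summed to 148 CPM, and over the 20 cells labelled Cont to 4873 CPM.

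Between the mesenchymal clusters of the finer (community) setting, each against the mean of the other 16, 5 of 85 tests of members were called higher, where 3.93% of all tests were. Here too the clusters were built from the same transcriptomes. Cluster #m4c, peribiliary fibroblasts, held *Aqp1* at 140 CPM in males and 59.1 CPM in females, with a log2 fold change of 3.60 (SE 0.84, adjusted p = 0.00778); by DESeq2 the adjusted p was 0.103, and the log2 fold change was 1.73 without the male and 6.16 without the female pool, with no test. Cluster #m14c, cells annotated PortalFibroblasts of the female plate, stood at 1370.0 CPM without a male sum, with a log2 fold change of 7.48 (SE 0.87, adjusted p = 4.23e-06). That single sum, assumed in the fit to vary like those of the other clusters, held 6 cells, each with at least 20 counts of *Aqp1*. Endothelial markers moved with it: the 10 female portal fibroblasts at that limit held 1812 CPM of endothelial and 2549.9 CPM of sinusoidal markers, against 40.9 and 55.2 CPM in the other 83, and their part in the call was not tested. The remaining calls rested on 1 to 4 cells: *Aqp8* in #m17c, also a single sum, where 1 cell held all 170 counts, *Aqp9* in #m2c (37 counts in 2 cells) and *Aqp11* in #m15c (described below).

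In the immune class, each cluster against the mean of the other 6, 2 of 35 tests of members were called higher, where 2.18% of all tests were, and both lay in #i4. *Aqp1* stood there at 797 CPM in the female and 432 CPM in the male pool, against 10.95 to 165 CPM in the other sums (log2 fold change 3.90, SE 0.88, adjusted p = 0.00219). The call rested on the cells labelled Cont, of which 20 of 26 reached 20 counts. These 20 held 4873 CPM of endothelial and 7948 CPM of sinusoidal markers, whose part in the call was not tested. At least 1 of the 20, at 4366 CPM of *Aqp1*, lay in #i3 rather than #i4. The labels do not explain Cont. The paper describes a Kupffer subcluster contaminated by endothelial transcripts. Without the cells labelled Cont, an alternative chosen after seeing the data, the log2 fold change was -1.76 (adjusted p near 1). *Aqp8* in #i4 came from 1 cell with 41 counts. B cells held *Aqp1* at 27.5 CPM with 2 of 57 cells at 20 counts, and the stellate cells (HSC) at 15.3 CPM with 1 of 73.

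In hepatocytes, *Aqp8* and *Aqp9* had the highest summed levels of the 8 members and the most cells at 20 counts. *Aqp1* had a count in more cells, 87 of 203, but reached 20 counts in 4, at 19.2 CPM. *Aqp8* had a count in 52 of 203 cells, or 25.6% (exact binomial 95% interval 19.8 to 32.2%), 43 of them with at least 20 counts, and a level of 105 CPM. *Aqp9* had a count in 41 of 203 cells (20.2%, interval 14.9 to 26.4%), 26 of them with at least 20 counts, at 84.1 CPM. Per kilobase of exon, so that genes can be compared, *Aqp8* stood at 66.2, *Aqp9* at 20.3, *Aqp1* at 7.31 and *Aqp11* at 0.55 CPM. When each cell was thinned to 50000 counts, 24.6% and 15.8% of hepatocytes kept a count of *Aqp8* and *Aqp9*.

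Both channels followed the hepatocyte clusters in their own way. *Aqp8* was at 176 CPM in #p4 (31 of 59 cells), where the periportal genes *Cyp2f2* and *Hal* stood at 1164 and 1899 CPM. It was at 175 CPM in #p3 (10 of 23 cells), where the pericentral genes *Glul* and *Cyp2e1* stood at 997 and 4561 CPM, *Hal* at 82.5 CPM and *Cyp2f2* at 371 CPM. It was at 32.8 CPM in #p5 (8 of 57 cells), where *Glul* and *Cyp2e1* stood at 2365 and 2770 CPM, *Hal* at 14.1 CPM and *Cyp2f2* at 24.9 CPM. In #p1 it was at 49.9 CPM, but 90.9% of those counts came from 1 cell, and without it the level was 4.67 CPM. *Aqp9*, which the study named as a distinguishing gene of a hepatocyte population found by this clustering, was highest in #p3, so that the difference is partly built in, and was counted in 10 of 59 cells of #p4 and 10 of 57 cells of #p5. Per kilobase, *Aqp9* (131 CPM) stood above *Aqp8* (110 CPM) in #p3 and below it in #p4 (8.22 against 111 CPM).

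These differences have no replicate. All cells of #p3, #p4 and #p5 were male, and 1 plate gave 19 of 23, 56 of 59 and 56 of 57 of them. Of the 52 hepatocytes with *Aqp8*, 51 came from that plate, and of the 41 with *Aqp9*, 39. The other hepatocyte plates with at least 5 cells held 12, 10 and 12 cells: *Aqp8* was at 40.3 CPM on one, from 1 cell, and at 0 on the others, and *Aqp9* at 4.79 CPM and 0. Those plates held mostly cells of #p1, whose median total was 131878 counts, against 204679 in #p4. Within the 1 plate, *Aqp8* was at 194.5 CPM in #p4 (31 of 56 cells), 195 CPM in #p3 (9 of 19 cells) and 34.0 CPM in #p5 (8 of 56 cells), and *Aqp9* at 708 CPM in #p3 (16 of 19 cells), 37.7 CPM in #p4 (10 of 56 cells) and 49.7 CPM in #p5 (10 of 56 cells). In the 24 cells of #p1 on that plate, *Aqp8* was at 220.1 CPM from 3 cells, among them the cell with most counts, and *Aqp9* at 25.2 CPM from 3 cells. At 50000 counts per cell, *Aqp8* was left in 30 of 59 cells of #p4, 10 of 23 of #p3, 7 of 57 of #p5 and 3 of 64 of #p1, and *Aqp9* in 17 of 23 cells of #p3, 7 of 59 of #p4 and 6 of 57 of #p5.

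Cells with *Aqp8* overlapped those with *Aqp9* only in part. Of 203 hepatocytes, 19 held both, 33 *Aqp8* without *Aqp9*, 22 *Aqp9* without *Aqp8*, and 129 neither. With at least 20 counts of each, 11 cells held both, of 43 with *Aqp8* and 26 with *Aqp9*. Cells with *Aqp8* carried *Glul* at 170 CPM and *Cyp2e1* at 1070.3 CPM, and cells without it 1189 and 2240.5 CPM. For *Aqp9*, *Cyp2e1* went the other way, at 2680 CPM in cells with the channel and 1673 CPM in cells without. *Cyp2f2* (549 and 552 CPM) and *Cps1* (640.1 and 649 CPM) lay close together with and without *Aqp9*, *Glul* was at 1138 and 818 CPM, and *Hal* at 738 and 1038 CPM. *Hal*, *Cps1* and *Cyp2f2* were also higher in cells with *Aqp8* (1385, 891 and 1044 CPM, against 798, 545 and 345 CPM). These are sums over cells of mostly 1 plate and were not tested.

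**Figure D5:**
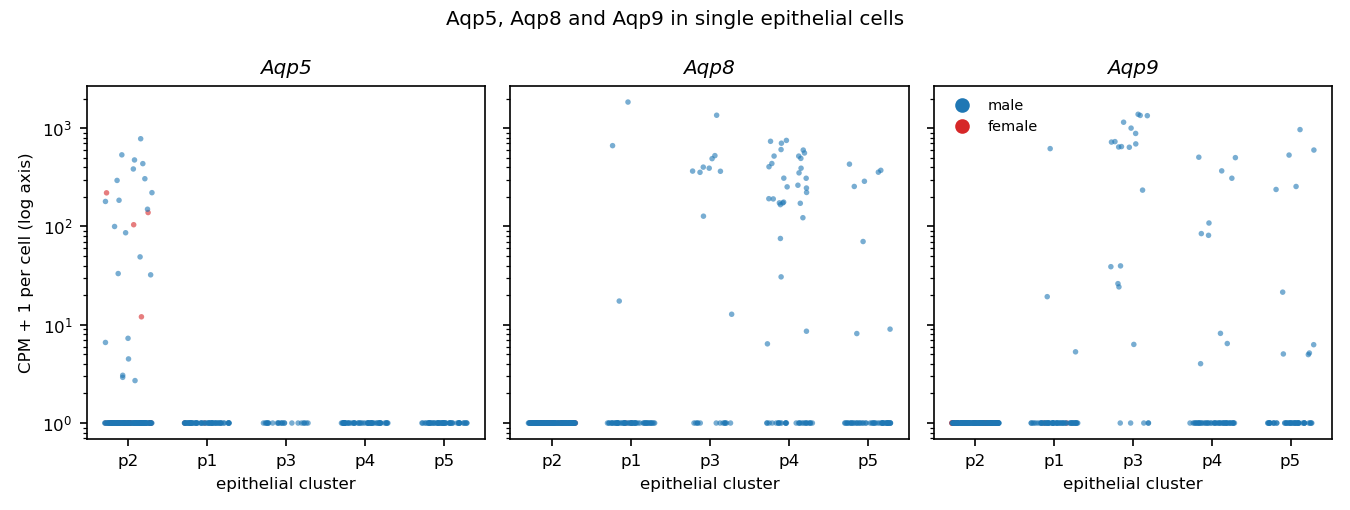
*Aqp5*, *Aqp8* and *Aqp9* in single epithelial cells by cluster. Each point is a cell, the vertical axis is CPM + 1 on a log scale, and colour gives the pool. *Aqp5* is found in #p2 alone (26 of 194 cells); *Aqp8* is found in 31 of 59 cells of #p4 and *Aqp9* in 18 of 23 cells of #p3, all male.

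Cholangiocytes (#p2) differed from the mean of the 4 hepatocyte clusters in 3 of 7 members tested. *Aqp5* was higher, where 28.6% of all genes were called higher, and *Aqp8* and *Aqp9* were lower, where 8.67% were called lower. *Aqp8* had 0 counts in 194 cholangiocytes, and 32.8 to 176 CPM in the hepatocyte sums. The 0 counts allow a share of cholangiocytes with a count of up to 1.55%, or 3 in 194 cells (exact binomial upper bound 1.88%). Against a floor of 3 counts over the group, *Aqp8* was at least 2188-fold and *Aqp9* at least 1760-fold lower in cholangiocytes. The adjusted p-values of the edgeR fit were 1.95e-07 and 2.16e-07. These bounds hold for the summed hepatocyte levels only. Without the plate with most cells, *Aqp8* in hepatocytes was at 10.3 CPM. *Aqp5* stood at 5.93 CPM in the female cholangiocytes and 27.3 CPM in the male ones, and at 0 in every hepatocyte sum. At its summed level of 25.2 CPM it was at least 301-fold higher (edgeR, adjusted p = 0.000164). That bound is lower at the level of the female pool, and at the 6.68 CPM left without the plate with most cells. Each of the 4 hepatocyte clusters gave 1 sum, a male one, so that the spread came from the 2 cholangiocyte pools (1 residual degree of freedom). For *Aqp8* and *Aqp9* both of these pools were at 0, so no spread of these genes was measured.

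*Aqp5* was confined to a share of the cholangiocytes. It had a count in 26 of 194 cells (13.4%, exact binomial 95% interval 8.95 to 19.02%) and at least 20 counts in 14. The cells came from 22 of 157 males and 4 of 37 females, and 19 of the 26 came from the male plate that gave 110 cholangiocytes. That plate stood at 33.9 CPM, a plate of 9 cells at 33.3 CPM through 1 cell, the female plate at 6.01 CPM, and the other male plates with at least 5 cells at 5.29, 2.24 and 0 CPM. Cells with *Aqp5* had a higher median total (409876 counts) than cells without (291790). After thinning to 50000 counts, *Aqp5* remained in 19 of 194 cells.

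Markers of ductal cells were present on both sides, and their levels were not tested. *Epcam* stood at 967 CPM with and 1010.3 CPM without *Aqp5*, and *Krt19* at 441 and 503 CPM. *Sctr*, the secretin receptor, was at 33.6 CPM with and 73.9 CPM without *Aqp5*, and *Cftr*, the chloride channel of bile secretion, at 16.9 and 12.9 CPM. *Aqp1*, the water channel usually named for bile ducts, was not called between cholangiocytes and hepatocytes (log2 fold change 1.47, SE 0.79, adjusted p = 0.147), and without the 37 female cells the log2 fold change was -0.80, with no test. It stood at 143 CPM in female and 14.5 CPM in male cholangiocytes, with a count in 36 of 37 and 37 of 157 cells. Sinusoidal markers moved with it, at 1243 CPM in the 8 cholangiocytes with at least 20 counts of *Aqp1* and 39.5 CPM in the other 186. The 7 endothelial markers were at 344 and 96.8 CPM there, but at 137 and 243 CPM among the female cells alone. In the epithelial pools, which also hold hepatocytes, sinusoidal markers summed to 610 CPM in females and 90.8 CPM in males, and endothelial markers to 217 and 119 CPM. The part of these transcripts in the result was not tested. *Aqp1* and *Aqp5* were counted together in 9 cholangiocytes, of 73 with *Aqp1* and 26 with *Aqp5*.

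*Aqp7*, a glycerol channel best known from fat and capillary endothelium, reached 20 counts in only 5 cells of the series. A female central vein cell of #e7 held 2106 counts (10647 CPM), a male PBV cell 673 and a female PBV cell 489. In cluster #e7 the pools stood at 130 CPM (female) and 0.08 CPM (male), and the log2 fold change was 6.47 (SE 1.14, adjusted p = 0.00852); without the top cell, which gave 98.9% of the counts, it was -0.01 (adjusted p = 1). In #e2, which holds portal vein and PBV cells, the pools stood at 27.0 CPM (female) and 42.1 CPM (male), with a log2 fold change of 4.98 (SE 1.14, adjusted p = 0.0332). A single cell gave 99.3% of the male and 95.1% of the female counts there, and with sums per plate the adjusted p was 0.446.

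Within #e2 the counts of *Aqp7* lay in PBV: 1177 of 1192 counts came from 4 of 14 PBV cells, at 179 CPM in females and 437 CPM in males. The top 3 cells had no count of the adipocyte genes *Adipoq* or *Plin1*, and *Cidec* had 250 counts in 1 of them. *Fabp4*, which capillary endothelium also uses, had 243, 565 and 1246 counts. Sinusoidal endothelium held *Aqp7* at 0.49 CPM, with a count in 52 of 542 cells and none at 20.

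*Aqp11* was scattered over many cell types in single cells. It was above 1 CPM in 14 of 30 clusters and above 20 CPM in 1, #m6, at 34.2 CPM. Its endothelial call lay in the cluster that holds portal vein and PBV cells. In #e2, *Aqp11* reached 38.7 CPM among males against 2.47 among females, with 12 of 128 cells counted and 7 at 20 counts, and the other endothelial sums lay at 0 to 9.80 CPM (log2 fold change 7.24, SE 1.29, adjusted p = 0.00823). Annotated PortalVein cells alone gave 33.3 CPM in 5 of 63 males and 1.42 CPM in 5 of 51 females. In #m15c, cells annotated elaSMC, the female pool held 39.8 CPM and the male pool 0 (log2 fold change 5.08, SE 1.36, adjusted p = 0.0206), from 4 cells, of which 1 gave 75.2% of the counts. That call was lost with the sex of the pools as a block (3.41, adjusted p = 0.603) and turned to -3.86 without the female pool. Cholangiocytes held *Aqp11* in 10 of 194 cells at 7.22 CPM and hepatocytes in 9 of 203 cells at 5.19 CPM (log2 fold change 1.76, SE 1.39, adjusted p = 0.321).

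*Aqp3* and *Aqp4* were near 0 in nearly all cells. *Aqp3*, a glycerol channel of keratinized and collecting epithelia, did not exceed 0.605 CPM in any of the 30 clusters, and its highest count in a cell was 6. *Aqp4*, the water channel of astrocyte end-feet, had 302 of its 315 counts in 2 male epithelial cells, a hepatocyte of #p4 with 158 counts and a cholangiocyte with 144. *Aqp9* outside hepatocytes reached 20 counts in 4 of 57 monocytes, at 10.95 CPM, in 1 Kupffer cell, in 1 central vein cell and in 1 artSMC. In the immune clusters *Aqp9* was not called in #i2, which holds the monocytes (8.90 CPM, log2 fold change 6.18, SE 2.03, adjusted p = 0.0691).

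Among the other water channels, *Aqp2* and *Mip* were found as isolated cells. *Aqp2*, the vasopressin-regulated channel of the kidney, had 176 counts in 1 immune cell and 232 and 62 counts in 2 mesenchymal cells, of 14 cells with a count, and *Mip*, the channel of lens fibres, 107 counts in 1 immune cell. *Aqp6* had 1 count and *Aqp12* none.

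The genes with the pattern most like each member were sought over the 30 clusters, with both pools together, as the highest Pearson correlation of log2(CPM + 1) among the genes that reached 50 CPM in a cluster. The clusters share plates and libraries, and the values are descriptive. *Aqp1* was followed by *Kdr* (0.95), *Tie1* (0.95) and *Gpihbp1* (0.94). *Aqp8* was nearest to *BC048644*, *Entpd8* and *F13b* (0.96, 0.96 and 0.95), and *Aqp9* to *Cyp2c67*, *Slc27a2* and *Gm26697* (0.95, 0.91 and 0.91). *Aqp5*, present in 2 of the 30 clusters, was nearest to *Sfrp5*, *Lrrn1* and *Mmp7* (0.999, 0.999 and 0.997). The likeness was lower for *Aqp7*, whose level in #e7 and #e2 came almost wholly from 1 cell per pool so that the values describe those cells, with *Tmem255b* (0.84), *C1qtnf9* (0.69) and *Fam110d* (0.66), and for *Aqp11*, with *Inka2* (0.71), *Nav2* (0.69) and *Kcnh2* (0.63).

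The surroundings of each channel were read from lists of related genes. Of genes for ductal fluid and bicarbonate secretion, 14 of 17 tested were higher and 0 lower in cholangiocytes than in hepatocytes, with a median log2 fold change of 6.61. Over all genes the median was 1.38, with 28.6% called higher and 8.67% lower, and the next lists are set against the same shares. They were led by *Sctr* (10.66), the glucose carrier *Slc5a1* (10.57) and the potassium channel *Kcnn4* (10.53). Of genes for glycerol and triglyceride handling, to which *Aqp9* delivers substrate, 1 of 17 was higher and 10 were lower in cholangiocytes (median -2.34). The gluconeogenic enzymes *Fbp1* (-6.49) and *Pck1* (-6.34) and the kinase *Tkfc* (-5.67) were lowest, and *Dgat1* (3.76) was the 1 that was higher. Without the female pool *Fbp1*, *Pck1* and *Tkfc* were at -6.27, -9.39 and -5.37, with no test. Of genes for hydrogen peroxide handling, 1 of 15 was higher and 9 were lower (median -2.19), with catalase, *Cat* (-3.98), *Gpx1* (-3.39) and *Prdx6* (-2.98) lowest and the extracellular *Sod3* (3.20) higher.

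In the class comparison, epithelium had 12 of 20 genes of the secretion list higher and 0 lower (median 4.01 against -0.27 over all genes, of which 8.37% were called higher and 4.05% lower), led by *Slc5a1* (10.83), *Sctr* (8.91) and *Cftr* (8.80). Its glycerol list had 9 of 17 higher (median 1.28), led by *Gpd1* (7.31), *Pck1* (6.56) and *Fbp1* (6.33), and *Lpl* (-3.94) lower. Over the pools left out these 3 leading genes ran from 6.39 to 7.90, 3.63 to 7.68 and 3.17 to 7.29. Its peroxide list had 3 of 15 higher (median 0.25), *Cat* (2.87), *Sod3* (2.32) and *Prdx6* (2.06), and *Gpx3* (-2.18) lower. Over the pools left out the 3 higher ones ran from 1.09 to 3.68, 2.18 to 2.57 and 1.32 to 2.58. Endothelium, where *Aqp1* and *Aqp7* were called, had 1 of 20 higher and 4 lower (median -1.23 against 0.04 over all genes, of which 5.33% were called higher and 2.96% lower). The 1 was *Kcnq1* (2.71), a potassium channel, and the lowest were the chloride channel Ano1 (-7.17), the sodium pump subunit Atp1b1 (-5.92) and the nucleotide receptor P2ry2 (-5.19). In the glycerol list, endothelium had 1 of 17 higher, the monoglyceride lipase *Mgll* (2.83), and 3 lower, the lipoprotein lipase *Lpl* (-3.42), *Gpd1* (-3.02) and *Gpam* (-2.85). In the peroxide list it had 0 of 15 higher and 3 lower, *Sod3* (-4.81), *Gpx3* (-4.69) and *Prdx5* (-1.73).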

How the data were processed

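Smart-seq2 reads of sorted single cells were counted per gene and cell, and raw counts were deposited by the authors after cells with few counts and cells of mixed type had been removed. The submitters' notes name bcl2fastq, Bowtie, Bowtie2, featureCounts and Seurat without versions, and the builds GRCm38 and mm10; strandedness is not given in the sources used here. The 92 spike-in rows were left out, and 0 columns were unused. Totals per cell ran from 47063 to 1128421 counts (median 228708).

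Counts were summed per class or pagoda2 cluster and sex pool, with at least 5 cells per sum, and fitted by edgeR 4.0.16 in R 4.3.3 (TMM scaling, filterByExpr, quasi-likelihood test, Benjamini-Hochberg adjustment over all genes). Alternatives were DESeq2 1.42.0, no filter, sums per plate, at least 10 cells per sum, thinning to 50000 counts, the pool as a block, leaving out each pool, and, chosen after seeing the data, leaving out cells labelled Cont, mesothelial cells or the cell with most *Aqp7*. The fit was also run on simulated counts with known fold changes, and the outcome is not given here. All 8 members were described; of each list, up to 3 called genes per direction were named in the contrasts described, and per member with at least 20 CPM in a cluster the 3 genes of most similar pattern. Members and lists were chosen with earlier results of these data known.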

Additional observations from a re-analysis of the deposited data

Results flagged for a closer look

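For 2 members the female and male pools differed in opposite directions in different annotations, by at least 1 on the log2 scale each way and with at least 20 counts in both pools. The values are log2 of the female over the male CPM. No such difference was tested, because sex coincided with plate and every pool is a single sum. For *Aqp1* the value was 3.30 in cholangiocytes, 4.45 in artSMC, 4.42 in cHSC, 2.12 in PBV, 1.50 in portal fibroblasts, 1.30 in SLC and 1.12 in Sinusoid_EC, all higher in females, and -1.18 in peribiliary fibroblasts. In cHSC, 2 of the 22 female cells held *Aqp1* at 431 CPM, beside 1115 CPM of endothelial and 840 CPM of sinusoidal markers, and the other 20 were at 5.43 CPM against 2.49 CPM in males. In artSMC, 11 female cells held 596 CPM, and the other cells were at 4.51 CPM in females and 2.53 CPM in males. The part of endothelial transcripts was not tested. In peribiliary fibroblasts, the female plate was at 59.1 CPM and the male plates with at least 5 cells were at 193.5, 15.1 and 0.26 CPM, so that the direction rests on 1 male plate. For *Aqp11* it was 2.33 in portal fibroblasts, -3.40 in PBV and -4.55 in PortalVein. In PBV, with 9 female and 5 male cells, 1 cell of each pool held all *Aqp11* counts (24 and 139).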

How the results depend on the processing

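Of 307 recomputed fold changes of members, 257 kept their direction and their side of the threshold. The 4 class calls (7.77% of all tests) became 1 with sums per plate (11.8%), *Aqp1* in endothelium, where the other 3 genes did not pass the filter. With a pool left out they became 2 to 6, where 4.46 to 6.38% of all tests were called higher. No member was called lower between classes (3.65% of all tests). The count was 5 without the filter on low counts (5.33%), 4 by DESeq2 (11%) and 1 with sums per plate (9.11%). Without a pool it was 0 to 2 (1.92 to 3.11%). In cholangiocytes against hepatocytes the 1 higher call became 2 after thinning. The 5 mesenchymal calls became 1 by DESeq2 and 8 with sums per plate. The 2 immune calls became 1 by DESeq2, 1 after thinning and 1 without the cells labelled Cont. For comparisons within a class, the shares of all tests called in these alternatives, or with the pool as a block, are not given here. The counts are thus not read as changes in the members.

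With the pool as a replicate block, 3 mesenchymal and 1 immune calls were left, and *Aqp8* in epithelium was at 5.86 (adjusted p = 0.279 by edgeR). The pools of a block share a sex, and whether they share animals is not given, and for cholangiocytes against hepatocytes the block left no residual degree of freedom.

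Of called values, the sign turned for *Aqp8* in epithelium (-7.04 to 9.68 over the pools left out), *Aqp7* in #e7 (-1.53 to 7.07 over the pools, -0.0074 without its top cell), *Aqp11* in #m15c (-3.86 to 5.66) and *Aqp1* in #i4 (-1.76 without the cells labelled Cont). Of values that were not called, it also turned for *Aqp9* in epithelium (-8.40 to 7.82 over the pools) and *Aqp1* in cholangiocytes against hepatocytes (-0.80 without the female pool, -0.78 with the block), and *Aqp1* turned in 6 of the 8 endothelial clusters, #e1 to #e5 and #e7, in a single setting or a pair of them. Without the plate with most cells, *Aqp5* in cholangiocytes was at 6.68, *Aqp8* in hepatocytes at 10.3 and *Aqp1* in peribiliary fibroblasts at 21.1 CPM. Leaving out a pool gave 5.93 to 27.3 CPM for the first and 59.1 to 134 CPM for the last. As a mean over cells and after thinning, *Aqp8* in hepatocytes was at 92.6 and 93.0 CPM, and *Aqp9* in #p3 at 501 and 477 CPM. The causes were not tested. With 2 pools per class and mostly 1 plate of hepatocytes, levels in rare cells rest on few libraries.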
